A study of Carassius auratus with 6 samples.

Results

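The genes described here are the crucian carp copies of ncoa7, oxr1 and tldc1, which encode stress proteins that carry a TLDc domain. Rows were taken by gene name, ignoring case and allowing a copy suffix, and 14 of the 47544 genes in the table matched. They were 7 copies of ncoa7, 5 of oxr1 and 2 of tldc1, and no row was matched to the name tldc2. The family was selected on the hypoxia minus control contrast, which had been seen beforehand, so its levels and differences in that contrast are given as a description and support nothing.

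Liver RNA of wild-type crucian carp (Carassius auratus) was sequenced in 6 libraries. The hypoxia group, labelled H12h, has 3 libraries from fish held under hypoxia stress for 12 h, and the control group, labelled N, has 3 libraries with the treatment given as control. Both groups are whole liver tissue, and the sources used here do not state age, sex or strain. The labels do not say whether the 3 libraries of a group are separate fish. The errors therefore rest on the spread between libraries, which may be technical. The contrast addresses which transcripts differ between livers after 12 h of hypoxia stress and control livers. Any other difference between the groups, such as in handling or time of sampling, cannot be told apart from it.

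The TLDc domain is a fold shared by a small set of eukaryotic proteins, several of which bind the V-ATPase, the proton pump that acidifies lysosomes and other compartments. OXR1, the oxidation resistance protein, is known in mammals for limiting oxidative damage, above all in neurons. NCOA7 was first described in human cells as a coactivator of the estrogen receptor and related nuclear receptors, and it is the closest relative of OXR1. TLDC1 is also called MEAK7 and has been linked to mTOR signalling at the lysosome in human cells, while TLDC2 is a short protein that consists of little more than the domain.

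Each library's read counts had been scaled by 1 size factor and not by gene length, and the scaled values are called normalized counts here. Levels are therefore compared between libraries and not between copies. How reads shared by near-identical copies were assigned is not stated, so the split of counts among copies is uncertain, and in the reference NCOA7 113068561 and OXR1 113062192 each overlap another coding gene and Oxr1 113115847 overlaps a long non-coding RNA gene. Recovered reads per library were between 15734847 and 22782649, and 1 read was worth 0.765 to 1.18 normalized counts. Control replicate 2 was farther from the mean of the other 2 controls (root mean square difference 1.37 on the log2 scale) than any other library was from its own group (0.801 to 1.07), and values without it are given below where they matter. Hepatocyte markers were abundant in each library, with a summed level of 1227360 to 2566870 in hypoxia livers and 1786530 to 2634700 in control livers, and their most abundant row was the fibrinogen chain FGA 113044501. Digestive enzymes of the exocrine pancreas, which is mixed into the liver of carps, were also present but uneven, at 50983 to 158117 in hypoxia livers and 372 to 120920 in control livers, led by CPB1 113042243. The leading rows of the other lists were hbb 113082649 for erythrocytes, Cd74 113069553 for macrophages, LCK 113117453 for T and NK cells, MMP9 113093908 for neutrophils, kdrl 113113945 for endothelium, krt18 113092494 for bile ducts and COL1A1 113119710 for stellate cells and fibroblasts.

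One copy of ncoa7 stood far above its control level after hypoxia, while the other 13 copies did not pass the test. The copy NCOA7 113059420 had 2159.6, 1799 and 2140.1 normalized counts in hypoxia livers, against 53.9, 31.2 and 19.0 in control livers. The groups were far apart, and the lowest hypoxia library was 33.4 times the highest control library. Hypoxia livers averaged 2033 ± 203 and control livers 34.7 ± 17.7 (SD, n = 3 each), a ratio of means of 58.6. On the log2(normalized count + 1) scale the difference was 5.95 ± 0.35 (SE), and without control replicate 2 it was 5.93. The values rest on 6811 recovered reads in hypoxia livers and 95 in control livers. The authors' deposited table lists a log2 fold change of 5.88 for it.

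**Figure D1:**
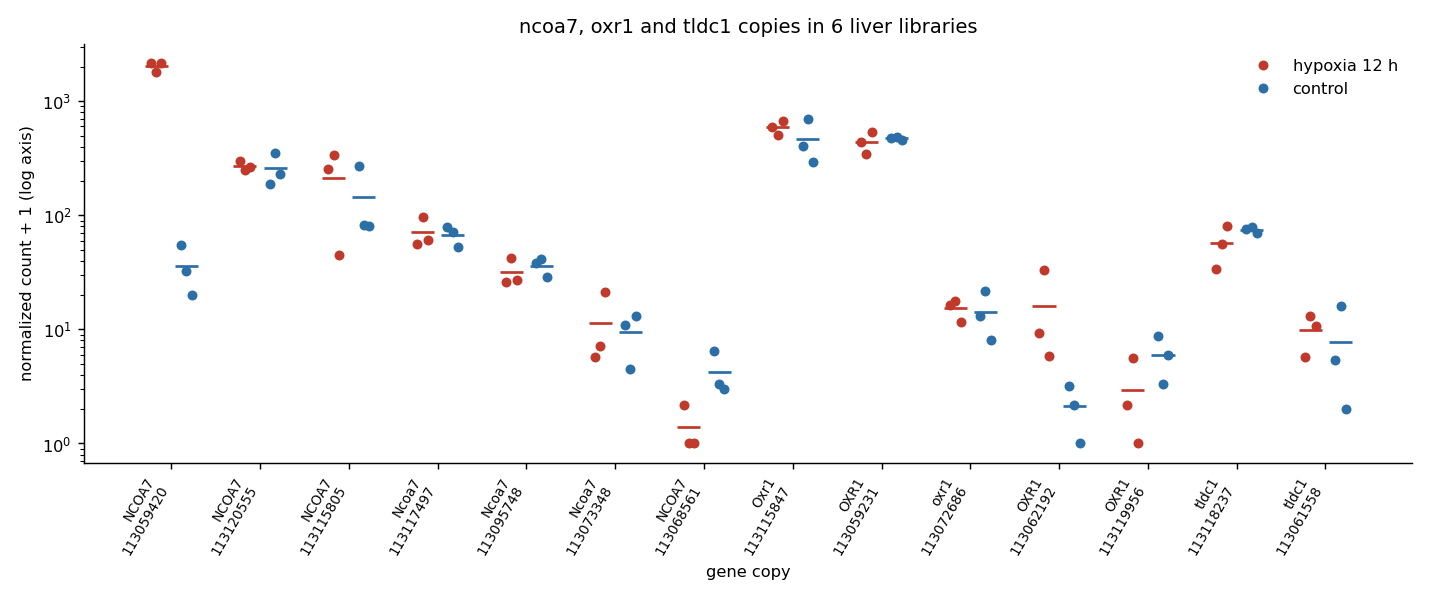
Normalized count plus 1 (log axis) of each ncoa7, oxr1 and tldc1 copy, with 1 point per library and a bar at the group mean, hypoxia in red and control in blue. NCOA7 113059420 is the copy whose groups lie far apart, at 1799 to 2159.6 in hypoxia livers and 19.0 to 53.9 in control livers.

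A gene is said to have risen or fallen at a Benjamini-Hochberg adjusted p under 0.05 in limma's moderated test over all 41045 genes with a mean of at least 1. All 14 copies passed that filter, 1 of them had risen and 0 had fallen, whereas 1.83% of all tested genes had risen and 0.417% had fallen. By an unadjusted p under 0.05, limma put 2 of the 14 higher and 0 lower, and edgeR and DESeq2 on recovered reads each called 1 higher and 0 lower. Over all tested genes, 10.2% were higher and 8.41% lower at that unadjusted p. The edgeR calls were 1.51% higher and 0.404% lower, and the DESeq2 calls were 5.09% higher and 3.24% lower of the genes it gave an adjusted p. All hypoxia libraries lay above all controls in 2 of the 14 copies (12.4% of all tested genes) and below them in 1 (12.2% of all tested genes). The median log2 difference was 0.13 over the copies and 0.00 over all tested genes. Since the contrast was known when the family was chosen, nothing is read from these counts.

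**Figure D2:**
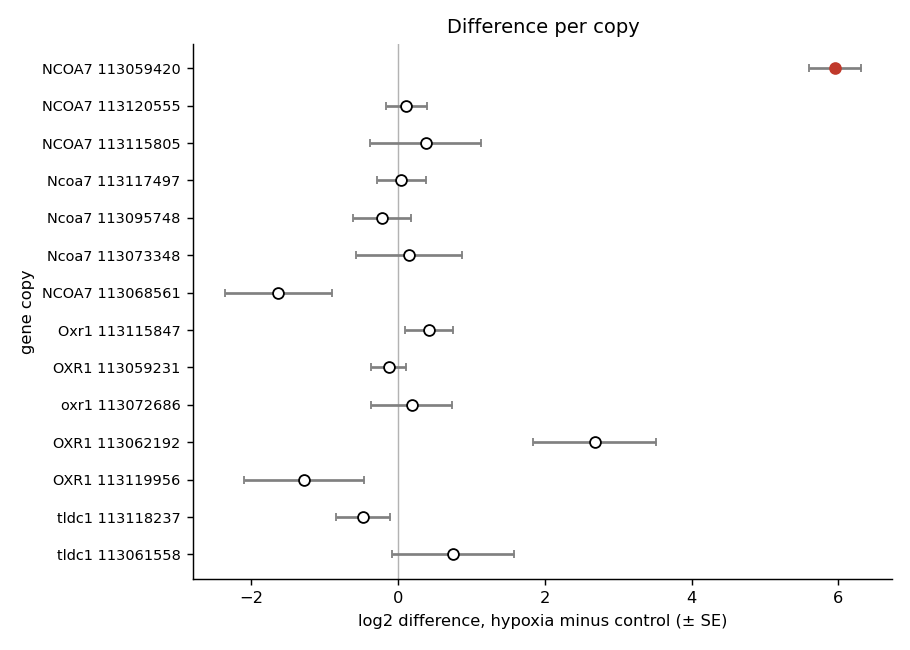
Log2 difference, hypoxia minus control, of each copy with its standard error. The filled red point is NCOA7 113059420 at 5.95, the copy that rose, and the open points are the 13 copies that did not pass the test, which lie between -1.63 and 2.68.

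Among the coactivator copies, the one that matches NCOA7 113059420 by position did not pass the test. Gene order came from the RefSeq gene table of the goldfish assembly ASM336829v1, and neighbour names from the authors' deposited table. By these, both NCOA7 113059420 and NCOA7 113115805 lie among genes named Tmem222, Wdtc1 and Azi2. RefSeq names the second ncoa7a. The partner NCOA7 113115805 had 255, 339 and 43.9 normalized counts in hypoxia livers, against 271, 80.9 and 79.1 in control livers. Its groups overlapped, with hypoxia replicate 3 below every control and control replicate 1 above the other 2. The means were 213 ± 152 in hypoxia livers and 144 ± 111 in control livers (SD, n = 3 each), and the log2 difference was 0.38 ± 0.76. Without hypoxia replicate 2 the difference was -0.18, and without hypoxia replicate 3 it was 1.28.

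Set over its partner within each library, NCOA7 113059420 was at a ratio of 8.46, 5.30 and 48.7 in hypoxia livers and 0.198, 0.386 and 0.241 in control livers. The partner was the more counted of the pair in each control library and the less counted in each hypoxia library. Together the pair had 2415, 2139 and 2184 normalized counts in hypoxia livers, against 325, 112 and 98.1 in control livers. The groups were apart in the sum as well, and the part of shared reads in it was not tested. The pairing by neighbours, these ratios and the shares below were chosen after the values had been seen.

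Marker levels of other cell types are given beside these copies. Exocrine pancreas markers (8 of 14 symbols matched, 31 rows, none at 0 throughout) summed to 61774, 158117 and 50983 in hypoxia livers, against 120920, 372 and 12618 in control livers. NCOA7 113115805 was at 255, 339 and 43.9 in hypoxia livers, against 271, 80.9 and 79.1 in control livers. Hypoxia replicate 2, control replicate 1 and hypoxia replicate 1 had, in that order, the highest marker sums and the highest levels of that copy. Hypoxia replicate 3 had a marker sum similar to that of hypoxia replicate 1 and the lowest level of the copy in any library. Control replicates 2 and 3 had unlike marker sums and similar levels of it. This list is 1 of 9 and was set beside the copy with the values known. Endothelial markers (7 of 8 symbols matched, tek not among them, 16 rows, none at 0 throughout) summed to 1789, 3597 and 1972 in hypoxia livers, against 1274, 1081 and 1576 in control livers, and of the 9 marker lists this was the 1 whose groups did not overlap. Of all tested genes taken singly, 12.4% had all hypoxia libraries above all controls and 12.2% had all below. Nothing is therefore read from 1 such list in 9. By limma 2 of the 16 tested endothelial rows rose and 0 fell, and of the 25 tested exocrine pancreas rows 0 rose and 0 fell. The median log2 difference over tested rows was 2.31 for exocrine pancreas and 1.13 for endothelium, against 0.00 over all tested genes. The medians of the other lists were between -0.49 and 0.40. Of the other lists, 2 of 10 tested neutrophil rows rose and 0 fell, and 2 of 22 tested hepatocyte rows rose and 3 fell, against 1.83% risen and 0.417% fallen over all tested genes. The part of either cell type in the ncoa7 levels was not tested. In bulk tissue a change in the number of cells of a type and a change in RNA per cell cannot be told apart.

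In 3 further ncoa7 copies the groups overlapped. NCOA7 113120555 had 297, 248 and 264 normalized counts in hypoxia livers, against 187, 354 and 231 in control livers. Control livers spanned more than hypoxia livers and enclosed them, and the difference was 0.11 ± 0.28. Ncoa7 113117497 had 55.5, 95.6 and 59.4 in hypoxia livers and 78.0, 70.5 and 52.0 in control livers (0.05 ± 0.34). Ncoa7 113095748 had 24.8, 41.3 and 26.0 in hypoxia livers and 37.4, 40.5 and 28.0 in control livers (-0.22 ± 0.39). In both, at least 1 control lay among the hypoxia libraries.

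The last ncoa7 copies were barely counted. Ncoa7 113073348, a pseudogene in the reference, had 4.73, 6.12 and 20.3 normalized counts in hypoxia livers and 9.89, 3.47 and 12.01 in control livers (0.15 ± 0.72). NCOA7 113068561, whose neighbours Fdft1, Gata4, Irf4, Psmg4 and Slc22a23 by name are also those of NCOA7 113120555, had 1.18, 0 and 0 in hypoxia livers, against 5.49, 2.31 and 2.002 in control livers. These are 1 read in hypoxia livers and 9 in control livers, a ratio of control over hypoxia of 10.98 with an exact 95% counting interval of 1.52 to 481. The 2 libraries at 0 allow up to 2.29 and 2.44 normalized counts in hypoxia replicates 2 and 3. These limits and the interval cover counting error only. Its hypoxia libraries all lay below its controls, with a log2 difference of -1.63 ± 0.72.

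Summed over its 7 copies, ncoa7 had 2798, 2530 and 2554 normalized counts in hypoxia livers, against 643, 583 and 423 in control livers. The sums did not overlap, and the ratio of means was 4.78. Without NCOA7 113059420 the other 6 copies summed to 594 ± 163 in hypoxia livers and 515 ± 97.6 in control livers (SD, n = 3 each), where the groups overlapped. In shares of counts, which are not corrected for gene length, that copy made up 77.2%, 71.1% and 83.8% of the ncoa7 sum in hypoxia livers, against 8.38%, 5.36% and 4.49% in control livers. In control livers the sum consisted mostly of NCOA7 113120555 (29.1%, 60.7% and 54.6%) and NCOA7 113115805 (42.2%, 13.9% and 18.7%). Their shares in hypoxia livers were 10.6%, 9.82% and 10.3% for the first and 9.12%, 13.4% and 1.72% for the second.

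**Figure D3:**
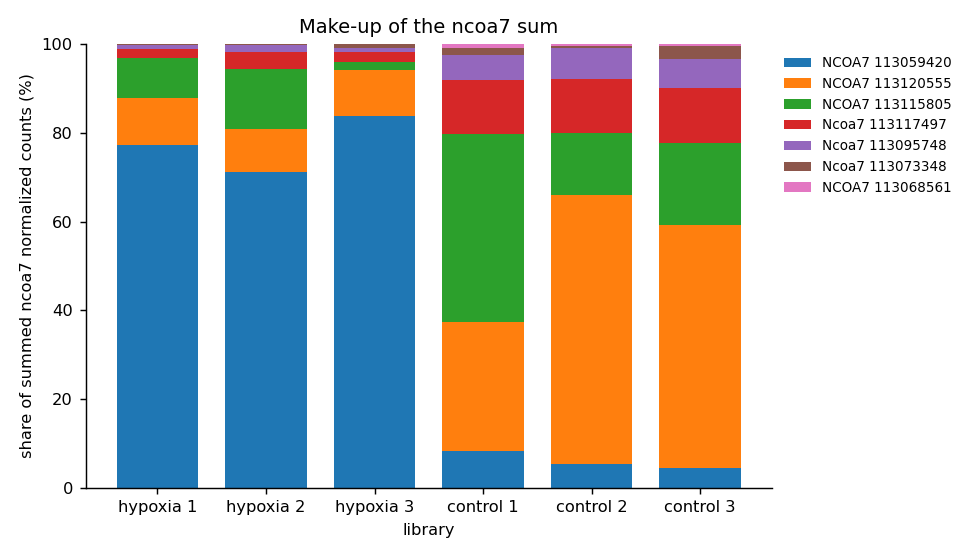
Share of the summed ncoa7 normalized counts (%) that each of the 7 copies contributed, 1 bar per library. NCOA7 113059420 contributed 71.1% to 83.8% in the hypoxia libraries and 4.49% to 8.38% in the control libraries.

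Genes beside NCOA7 113059420 had smaller differences and did not pass the test. Its tested coding neighbours in the reference order are Tmem222 and WDTC1 on one side and AZI2 and SERPINB1 on the other. Their log2 differences were between -0.60 and 0.84, and 0 of the 4 passed. The adaptor gene AZI2 113059421 had 228, 201 and 199 normalized counts in hypoxia livers, against 186, 97.1 and 87.1 in control livers, so its groups did not overlap (0.84 ± 0.32, adjusted p = 0.21). WDTC1 113059419 was at 262, 291 and 268 in hypoxia livers and 227, 282 and 252 in control livers (0.11 ± 0.22, adjusted p = 0.82). Around NCOA7 113115805 the 6 neighbours tested were between -0.69 and 0.68, and CNDP2 113115795 had 40.2, 929 and 18.7 in hypoxia livers, with replicate 2 alone high, against 94.5, 31.2 and 58.1 in control livers. Over the 3 coding genes on each side of the 11 copies placed on a chromosome, limma called 0 of 54 tested neighbours, with 11 at an unadjusted p under 0.05, while edgeR called 0 and DESeq2 called 1. At that unadjusted p 18.6% of all tested genes passed in either direction. Over all tested genes limma called 1.83% higher and 0.417% lower, and edgeR 1.51% and 0.404%. DESeq2 called 5.09% higher and 3.24% lower of the genes it gave an adjusted p. Nothing is read from the neighbour counts. The neighbours were chosen after their values could be seen, and position was used for gene order only, since the sources used here do not name the build behind the table.

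**Figure D4:**
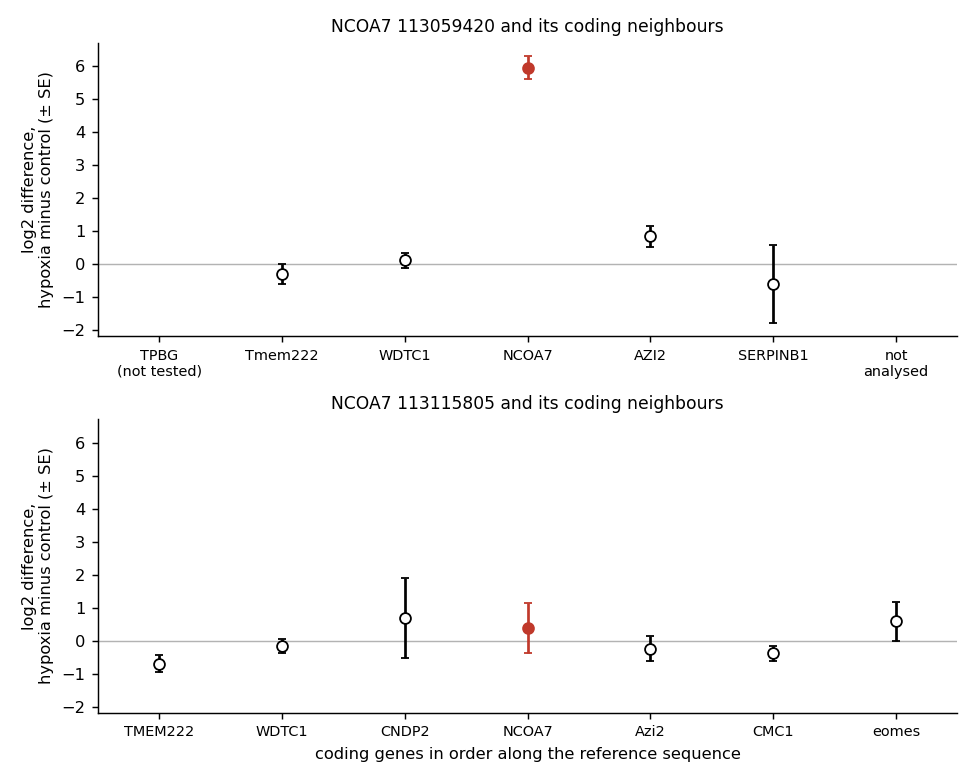
Log2 difference, hypoxia minus control, with its standard error for NCOA7 113059420 (upper panel) and NCOA7 113115805 (lower panel), both in red, and for up to 3 coding genes on each side in reference order, in open black points. In the upper panel the ncoa7 copy is at 5.95 and its tested neighbours lie between -0.60 and 0.84, and in the lower panel the copy is at 0.38 and its neighbours lie between -0.69 and 0.68.

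The oxr1 copies, which encode the oxidation resistance protein, gave most of their counts through a positional pair that did not pass the test. Oxr1 113115847, named oxr1a in the reference, had 593, 505 and 669 normalized counts in hypoxia livers, against 402, 700.5 and 294 in control livers. Control replicate 2 was the highest of the 6 libraries and control replicate 3 the lowest, and the difference was 0.42 ± 0.33. Without control replicate 2 every remaining control was below every hypoxia library and the difference was 0.76, and without control replicate 3 it was 0.14. OXR1 113059231, which has Zfpm2, Sqle and Rnf144b as neighbours like oxr1a, had 436, 343 and 534 in hypoxia livers and 473, 481 and 458 in control livers. Its highest control was 1.05 times its lowest, and its hypoxia libraries lay on both sides of the controls (-0.13 ± 0.24).

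The other oxr1 copies were low. OXR1 113062192 had 8.27, 32.1 and 4.88 normalized counts in hypoxia livers, against 2.198, 1.16 and 0 in control livers. All hypoxia libraries were above all controls, but hypoxia replicate 2 held 42 of the 55 hypoxia reads, and the controls had 3 reads in all. The ratio of hypoxia over control reads, scaled for depth, was 15.0 with an exact 95% counting interval of 4.88 to 75.1. That interval pools the reads of each group and covers counting error only, not the spread between libraries. The log2 difference of 2.68 ± 0.83 did not pass the test. The authors' deposited table lists a log2 fold change of 3.79 for this copy, with an adjusted p of 0.058 from their unnamed test. Its positional partner OXR1 113119956, named oxr1b in the reference, had 1.18, 4.59 and 0 in hypoxia livers and 7.69, 2.31 and 5.005 in control livers (-1.28 ± 0.82), from 7 and 14 reads. The pseudogene oxr1 113072686 had 15.4, 16.8 and 10.6 in hypoxia livers and 12.1, 20.8 and 7.01 in control livers (0.19 ± 0.55).

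Added over its 5 copies, oxr1 had 1054, 901 and 1218 normalized counts in hypoxia livers, against 897, 1206 and 765 in control livers. The groups overlapped, and the ratio of means was 1.11. Oxr1 113115847 made up 56.3%, 56.0% and 54.9% of the oxr1 sum in hypoxia livers, against 44.9%, 58.1% and 38.5% in control livers. OXR1 113059231 made up 41.4%, 38.0% and 43.8% in hypoxia livers, against 52.7%, 39.9% and 59.9% in control livers. The 2 copies thus supplied nearly the whole sum in every library of either group.

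Both tldc1 copies, which encode the mTOR-linked protein MEAK7 and lie among genes named Klhl36, Cotl1, Plcg2 and Cmip, did not pass the test. The copy tldc1 113118237 had 33.1, 55.0 and 78.9 normalized counts in hypoxia livers, against 74.7, 77.4 and 69.1 in control livers. Hypoxia replicate 3 was above all controls and the other 2 hypoxia libraries were below them, for a difference of -0.48 ± 0.37. The copy tldc1 113061558, named meak7 in the reference, had 4.73, 12.2 and 9.76 in hypoxia livers and 4.40, 15.0 and 1.001 in control livers (0.75 ± 0.83). It rests on 32 reads in hypoxia livers and 18 in control livers, and control replicate 2 was its highest library. Its difference was 1.51 without control replicate 2 and 0.0068 without control replicate 3. Together the tldc1 copies averaged 64.6 ± 25.6 in hypoxia livers and 80.6 ± 11.3 in control livers (SD, n = 3 each).

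The genes with the pattern most like that of NCOA7 113059420 over the 6 libraries were 2 copies of Angptl4, which encodes an inhibitor of lipoprotein lipase. Likeness was the Euclidean distance between log2(normalized count + 1) values centred on each gene's own mean, over 26986 named genes with a mean of at least 10. At a distance of 0.61, Angptl4 113116506 had 1024, 870.1 and 808 normalized counts in hypoxia livers, against 22.0, 18.5 and 11.01 in control livers. Angptl4 113117239 followed at 1.35, with 1041, 1119 and 751 in hypoxia livers and 17.6, 31.2 and 13.01 in control livers. The small heat shock gene hsp30 113057391 was next at 1.52, and the lipocalin gene Apod followed with copies 113119560 at 1.55 and 113119533 at 1.58. In hsp30 113057391 and Apod 113119533 all 3 controls had 0 reads, so their distances depend on the pseudocount. All 5 genes were found through the contrast that chose the family.

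Genes of processes that TLDc proteins are tied to were counted against the shares over all tested genes, 1.83% risen and 0.417% fallen by limma. Of 57 tested V-ATPase genes, 0 rose and 0 fell by limma, with 3 higher and 4 lower at an unadjusted p under 0.05, 0 called by edgeR, and 1 higher and 2 lower by DESeq2. Over all tested genes 10.2% were higher and 8.41% lower at the unadjusted p, and edgeR called 1.51% higher and 0.404% lower. DESeq2 called 5.09% higher and 3.24% lower of the genes it gave an adjusted p. The list's median log2 difference was 0.08, against 0.00 over all tested genes. The pump subunit ATP6V0B 113038256 had 109, 143 and 96.8 normalized counts in hypoxia livers, against 51.7, 42.8 and 32.0 in control livers (1.45 ± 0.32, adjusted p = 0.056). ATP6V0A2 113054119, a subunit of the membrane sector, had 1.18, 7.65 and 2.44 in hypoxia livers, against 42.9, 15.0 and 37.0 in control livers (-2.90 ± 0.70, adjusted p = 0.075). The groups of both were apart, in opposite directions, and leaving out 1 library at a time gave adjusted p of 0.051 to 0.19 for the first and 0.033 to 0.23 for the second, which passed without control replicate 2.

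Of the 12 genes of V-ATPase assembly and TBC1D24, another TLDc protein, 0 rose and 0 fell by limma, with 1 higher and 1 lower at an unadjusted p under 0.05, 0 called by edgeR and 1 lower by DESeq2, and a median of -0.30. The shares over all tested genes were 1.83% risen and 0.417% fallen by limma, and 10.2% higher and 8.41% lower unadjusted. By edgeR they were 1.51% and 0.404%, and by DESeq2 5.09% and 3.24% of the genes it gave an adjusted p. DMXL2 113118577, part of the complex that assembles the pump, had 243, 372 and 219.7 normalized counts in hypoxia livers, against 171, 161 and 114 in control livers (0.88 ± 0.29, adjusted p = 0.16). A second copy, Dmxl2 113061865, was at 8.89 ± 3.07 in hypoxia livers and 28.2 ± 15.7 in control livers (SD, n = 3 each), a difference of -1.41 ± 0.62 (limma adjusted p = 0.26). Neither of these copies was called under any of the 14 alternatives, so the DESeq2 call fell on another gene of the list. The nuclear receptor coactivators ncoa1 to ncoa6 share a name with ncoa7 and not its domain. Of their 17 copies 0 rose and 0 fell by limma, with 3 higher and 0 lower at an unadjusted p under 0.05 and 0 called by edgeR or DESeq2, and their median was 0.22. The copy of smallest p was ncoa3 113110983, with 764, 980.2 and 994 in hypoxia livers, against 407, 739.8 and 497 in control livers (0.77 ± 0.28, adjusted p = 0.19). NCOA4 113057250, known as the receptor that delivers ferritin for breakdown, averaged 2744 ± 413 in hypoxia livers and 1534 ± 793 in control livers (SD, n = 3 each), with overlapping groups (0.94 ± 0.36, limma adjusted p = 0.21). Without control replicate 2 its difference was 1.34, at a limma adjusted p of 0.031, and with each other library left out the adjusted p was 0.31 to 0.48.

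Antioxidant defence, the process that OXR1 is named for, had 92 tested genes, of which 1 rose and 0 fell by limma. At an unadjusted p under 0.05 limma put 6 higher and 16 lower, edgeR called 1 higher and 1 lower, and DESeq2 called 3 higher and 6 lower. The shares over all tested genes were 10.2% higher and 8.41% lower unadjusted, 1.51% and 0.404% by edgeR, and 5.09% and 3.24% by DESeq2. The list median was -0.31, against 0.00 over all tested genes. The gene that rose was Sqstm1 113113483, the autophagy receptor p62, with 7844, 5272 and 10082 normalized counts in hypoxia livers, against 1469, 1259 and 2420.3 in control livers. Its groups were apart, and the difference was 2.18 ± 0.36 (adjusted p = 0.018), but with 1 library left out it passed in 3 of 6 fits. Its limma adjusted p was 0.095 without hypoxia replicate 1, 0.084 without hypoxia replicate 3 and 0.076 without control replicate 1, and between 0.023 and 0.030 in the fits that passed. These fits filtered genes on the libraries kept. With genes filtered on all 6 libraries, 0 antioxidant genes were called higher without control replicate 3, a fit that Sqstm1 113113483 had passed.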

How the data were processed

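The deposited table holds a signal per gene and library that the authors had scaled. Its name says FPKM, but every value was a whole multiple, within 0.01 of a read, of 1 step per library, so the values are counts divided by a size factor, from which reads were recovered. For control replicate 3 the step was too near 1 for an automatic check of whole reads to decide, and its reads were taken in the same way. The authors also deposited, for every gene, their log2 fold change with its p-value, raw and adjusted, and do not name the test. Their log2 fold changes of 5.88 for NCOA7 113059420 and 3.79 for OXR1 113062192 equal, as rounded here, those of DESeq2 on recovered reads. The deposited values are therefore no separate evidence. Bowtie2 2.2.8 and TopHat2 2.1.1 are named in the submitters' processing notes. How reads shared by near-identical copies were counted, the strand setting and the build are not stated there, so levels of single copies are uncertain.

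Genes with a mean of at least 1 were tested with limma 3.58.1 (R 4.3.3) on log2(normalized count + 1), with a mean-variance trend, no covariate and Benjamini-Hochberg adjustment over all 41045. The SE of each log2 difference is limma's, from a variance per gene that is drawn toward that trend over all tested genes. Adding 1 understates the difference of low genes. Alternatives were pseudocounts of 0.5 and 10, no filter, a mean of at least 10, quantile normalization, edgeR 4.0.16, DESeq2 1.42.0, a replicate block and each library left out, with the filter applied to the libraries kept. Filtering on all 6 libraries was added after the counts under both filters had been seen. The limma, edgeR, DESeq2 and block fits were also run on simulated data with known differences, as a check of the fitting only. The simulation held no outlying library and changed no barely counted gene, so it says nothing about control replicate 2 or the low copies.

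All 14 copies are given. From each of 4 lists the called genes, at most 4, or the 2 of smallest p were named, and the 5 genes of most similar pattern. The members, lists, tests and rules were chosen with earlier results of these data known. Of 47544 identifiers 46576 matched the reference. Copies were matched by name alone, and no sequence is shown.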

Additional observations from a re-analysis of the deposited data

How the results depend on the processing

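NCOA7 113059420 was the 1 member called, and 0 were called lower, under each of the 14 alternatives, with log2 differences of 5.58 to 6.32. The other 13 copies were not called wherever an adjusted p was obtained. The filter at 10 left 5 of them untested, and DESeq2 gave no adjusted p for NCOA7 113068561 and OXR1 113119956. The sign turned for Ncoa7 113073348 (-0.43 to 0.52), NCOA7 113115805 (-0.18 to 1.28), Ncoa7 113117497 (-0.20 to 0.19), NCOA7 113120555 (-0.089 to 0.37), OXR1 113059231 (-0.28 to 0.036) and oxr1 113072686 (-0.17 to 0.55) with 1 library left out, and for Ncoa7 113117497 also under quantile normalization (-0.024). With 1 library left out, the others kept their sign, at -2.004 to -1.28 for NCOA7 113068561, -0.44 to -0.085 for Ncoa7 113095748, 1.96 to 3.20 for OXR1 113062192, 0.14 to 0.76 for Oxr1 113115847, -1.92 to -0.67 for OXR1 113119956, 0.0068 to 1.51 for tldc1 113061558 and -0.77 to -0.16 for tldc1 113118237. Summed over copies, ncoa7 had a log2 ratio of 2.1001 to 2.38, oxr1 of 0.0087 to 0.35 and tldc1 of -0.62 to -0.05 with 1 library left out.

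Counts over all genes moved more. DESeq2 called 1678 higher and 1067 lower, against 750 and 171 by limma, and quantile normalization gave 274 lower. Leaving out 1 library gave 285 to 1425 higher and 36 to 935 lower, both highest without control replicate 2. When genes were instead filtered on all 6 libraries, a choice made after seeing the data, the ranges were 240 to 1314 and 13 to 871, with the same member call in each fit. Both filters had been run before the one reported was settled on. No pairing by replicate number was seen: deviations of same-numbered libraries correlated at -0.07, -0.19 and -0.03, and no library correlated best with its own number. Deviations from a mean of 3 libraries depend on each other, so these correlations cannot exclude a pairing. The replicate block gave 354 higher and 61 lower and the same member call.

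V-ATPase calls were 1 higher with a mean of at least 10, 1 higher and 2 lower by DESeq2, 1 lower under quantile normalization, and 0 to 3 lower with 1 library left out. The assembly list had 1 lower by DESeq2, and the NCOA list 0 to 1 higher with 1 library left out. Antioxidant calls were 2 higher and 1 lower under quantile normalization, 1 lower by edgeR, 3 higher and 6 lower by DESeq2, and 0 to 2 higher and 0 to 4 lower with 1 library left out (0 to 3 lower with the filter on all 6 libraries). Among the left-out fits, the 3 lower V-ATPase, 1 higher NCOA and 4 lower antioxidant calls came without control replicate 2. That fit also called the most genes over all, 1425 higher and 935 lower of 40987 tested. The cause of these shifts was not tested. There were 6 copies with under 60 reads in each group.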
